A study of Mus musculus with 2 samples.

Results

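CD150, CD48, CD201 and CD41 are the surface proteins by which mouse blood stem cells are most often told from their progeny, and they are described here as antibody tags beside the messenger RNA of their genes, Slamf1, Cd48, Procr and Itga2b, in the same cells. The members were chosen by name: 4 of the 32285 genes and 4 of the 15 antibody tags, of which 13 mark surface proteins and 2 are hashtags. All 4 genes and all 4 tags were detected in both libraries.

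CD150 is a self-binding receptor of the SLAM family (signalling lymphocyte activation molecules) that long-term stem cells keep and most of their progeny lose, while CD48, a lipid-anchored member of the same family, is gained as cells leave the stem state. CD201 is the endothelial protein C receptor, one of the most selective markers of dormant stem cells in marrow. CD41 is the alpha subunit of the platelet fibrinogen receptor and reaches the surface paired with integrin beta 3, the product of Itgb3. It marks megakaryocytes, mast cells and the stem cells that lean towards platelets.

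The study compared 1 control library with 1 library labelled Utx-deleted, called the Utx-labelled library here. In both, mouse bone marrow was collected 10 weeks post-transplantation, cells positive for Kit and for CD45.2 were selected, and they were stained with barcoded antibodies and run as CITE-seq, in which RNA and antibody tags are read from the same droplets as unique molecular identifiers (UMIs). Utx is Kdm6a, which encodes an enzyme that removes methyl groups from histone H3. The labels give no strain, promoter, Cre driver, number of animals or meaning of the hashtags, and both groups share the transplantation and the Kit and CD45.2 selection.

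Slamf1 and Cd48 are neighbours in the SLAM gene cluster on chromosome 1. Cd48 lies at chr1:171682009-171705258 and Slamf1 at chr1:171767127-171801184 on the plus strand of GRCm38, 61868 bases apart in GENCODE M21. Procr lies at chr2:155751117-155755471 on the plus strand and Itga2b at chr11:102453297-102470122 on the minus strand. Cd48 and Itga2b each overlap another gene model on the same strand, Gm37010 and Gm23563, and reads in the overlap cannot be assigned with certainty. The promoters of the neighbouring pair are shown because these 2 genes had unlike patterns across cell types: over 22 sums of cell type by library, the Pearson r of log2(CPM + 1) of Slamf1 and Cd48 was -0.09 (CPM, counts scaled to a total of 1e+06 UMIs). The 250 bases before each RefSeq start, on GRCm38.p6, read as follows, with GATAA (the core of GATA factor sites) and TGTGGT (a core of Runx factor sites), or their reverse complements, in capitals.
Slamf1 promoter, chr1:171766882-171767131, plus strand: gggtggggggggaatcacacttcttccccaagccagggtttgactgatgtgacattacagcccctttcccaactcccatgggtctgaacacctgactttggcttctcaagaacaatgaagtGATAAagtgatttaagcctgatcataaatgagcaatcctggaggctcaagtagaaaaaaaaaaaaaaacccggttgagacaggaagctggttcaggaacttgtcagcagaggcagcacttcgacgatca
Cd48 promoter, chr1:171681742-171681991, plus strand: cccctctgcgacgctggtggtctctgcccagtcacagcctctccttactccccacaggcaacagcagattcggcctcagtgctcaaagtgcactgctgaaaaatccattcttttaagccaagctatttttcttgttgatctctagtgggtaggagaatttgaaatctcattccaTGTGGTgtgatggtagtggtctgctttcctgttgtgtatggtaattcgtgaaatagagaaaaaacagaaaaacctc
The Slamf1 window held 1 GATAA, 129 bases before the start, and no TGTGGT, and the Cd48 window held 1 TGTGGT, 76 bases before the start, and no GATAA. On either strand, GATAA was found in 22.6% and TGTGGT in 14.0% of 32851 promoter windows of this length, so each match is a description and not a mapped site.

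The libraries held 7827 control and 7883 Utx-labelled barcodes, of which 7011 and 7206 were kept, with medians of 12367 and 11816.5 gene UMIs and 3459 and 3083.5 tag UMIs per cell. They shared 17 barcodes, 13 of them kept, and 2 Utx-labelled barcodes had over 50000 surface tag UMIs. Kdm6a was detected at 110 CPM in the control and 103 CPM in the Utx-labelled library, a log2 ratio of -0.09. Counts from the 3-prime end do not show whether an internal part of a gene is missing, so they do not check the label. Cells were typed by 6 marker genes per type, none of them a member, and each type name below stands for cells that resemble it by those markers. Despite the Kit selection, 74.7% of control and 77.5% of Utx-labelled cells were maturing-neutrophil-like, with median CD117 (Kit) tags of 19 and 12 UMIs against 203 and 219 in stem-cell-like cells. The stem-cell-like type held 362 control cells (5.16%, 95% exact binomial interval 4.66% to 5.71%) and 110 Utx-labelled cells (1.53%, 1.26% to 1.84%). Of 2 lists used only as a check, 5 of 6 macrophage genes had 20 to 442 UMIs in the control and 3 to 192 in the other library, while Vcam1 had 1725 and 3371. The endothelial genes ranged from 4 and 2 UMIs for Cdh5, which defines that type, to 6721 and 5515 for Pecam1, which blood cells also express. All intervals given here cover counting error only, since each group had 1 library and no test was possible.

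CD150 and Slamf1 marked 3 branches, namely stem-cell-like, megakaryocyte-progenitor-like and erythroid-progenitor-like cells. In the control, Slamf1 stood at 21.5 CPM (15.3 to 29.3, exact Poisson interval, 39 UMIs) in megakaryocyte-progenitor-like cells. The level was 14.7 CPM (10.8 to 19.5) in erythroid-progenitor-like cells and 9.95 CPM (7.98 to 12.3, 88 UMIs) in stem-cell-like cells. T-or-NK-cell-like cells headed the order with 26.1 CPM from 6 UMIs. Neighbours in this order overlapped in their intervals, whereas the megakaryocyte and stem types did not. The other 8 named types lay between 0 and 0.832 CPM.

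The CD150 tag was high in the same branches and in T-or-NK-cell-like cells, where its control median was 10 UMIs and 28% of cells were high by the rule below. Its control median was otherwise 107.5 UMIs in the megakaryocyte type, 50 in the erythroid type and 5 in stem-cell-like cells, against 2 in maturing-neutrophil-like cells, which carry little Slamf1 RNA. A cell was called high for a tag above the 99th percentile of maturing-neutrophil-like cells of its own library, which for CD150 was 14 UMIs in the control and 11 in the Utx-labelled library. By that rule 100% of the 66 control megakaryocyte-progenitor-like cells, 73.6% of the erythroid-progenitor-like cells and 34.5% (29.6% to 39.7%) of the stem-cell-like cells were CD150 high. The stem-cell-like type was therefore split, with a lower quartile of 2 and an upper quartile of 41 CD150 UMIs in the control.

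CD48 and Cd48 were broad, and Cd48 RNA was lowest in the erythroid, megakaryocyte and maturing-neutrophil types. Control Cd48 was highest in T-or-NK-cell-like cells at 322 CPM (253 to 404), dendritic-cell-like cells at 304 CPM and lymphoid-primed-like cells at 272 CPM (253 to 293), whose intervals overlapped. Monocyte-progenitor-like cells at 229 CPM, early-myeloid-like cells at 212 CPM and stem-cell-like cells at 196 CPM (187 to 205) followed, each overlapping its neighbour. The lowest levels were 84.3 CPM in erythroid-progenitor-like, 43.5 CPM (34.4 to 54.2) in megakaryocyte-progenitor-like and 9.38 CPM (8.63 to 10.2) in maturing-neutrophil-like cells, and these 3 did not overlap. The CD48 tag median was 1397.5 UMIs in dendritic-cell-like cells and 1169.5 in monocyte-progenitor-like cells. Stem-cell-like cells had a median of 697 UMIs, the megakaryocyte type 409 and maturing-neutrophil-like cells 100. CD48 was the only member tag with a median of more than 2 UMIs in the control maturing-neutrophil-like cells.

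CD201 and Procr were the rarest pair, and in the control Procr was concentrated in one type. Of 100 control Procr UMIs, 82 lay in stem-cell-like cells, at 9.27 CPM (7.37 to 11.5), and the next level was 1.56 CPM (0.424 to 3.98) in lymphoid-primed-like cells. Of 29 Utx-labelled Procr UMIs, 5 lay in stem-cell-like cells (1.64 CPM) and 12 in monocyte-progenitor-like cells (0.848 CPM). Another 2 put dendritic-cell-like cells at 5.90 CPM. Procr had 0 control UMIs in 6 of the 12 named types, the megakaryocyte and erythroid types among them, where 3 counts would correspond to 1.65 CPM in the control megakaryocyte-progenitor-like cells. The CD201 tag was weak throughout: its control median was 2 UMIs in stem-cell-like cells and 1 in maturing-neutrophil-like cells. Still, 7.46% (4.97% to 10.7%) of control stem-cell-like cells, 27 cells, exceeded 10 UMIs, the cut-off exceeded by 1.23% of all control cells.

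CD41 and Itga2b peaked in megakaryocyte-progenitor-like cells, where control Itga2b reached 349 CPM (323 to 378) and the CD41 tag a median of 202 UMIs. Basophil-or-mast-cell-like cells came next for RNA at 167 CPM (143 to 193), followed by stem-cell-like cells at 58.8 CPM (53.8 to 64.0) and early-myeloid-like cells at 53.8 CPM (47.5 to 60.7), which overlapped. The tag kept a different order, with medians of 26.5 UMIs in early-myeloid-like, 16 in stem-cell-like and 13 in basophil-or-mast-cell-like cells. The number of CD41 tag UMIs per Itga2b UMI was 28.8 (26.7 to 31.2) in control megakaryocyte-progenitor-like cells, 21.97 (20.2 to 24.0) in stem-cell-like cells and 5.38 (4.65 to 6.27) in basophil-or-mast-cell-like cells. RNA and tag thus ranked the basophil or mast cells differently.

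**Figure D1:**
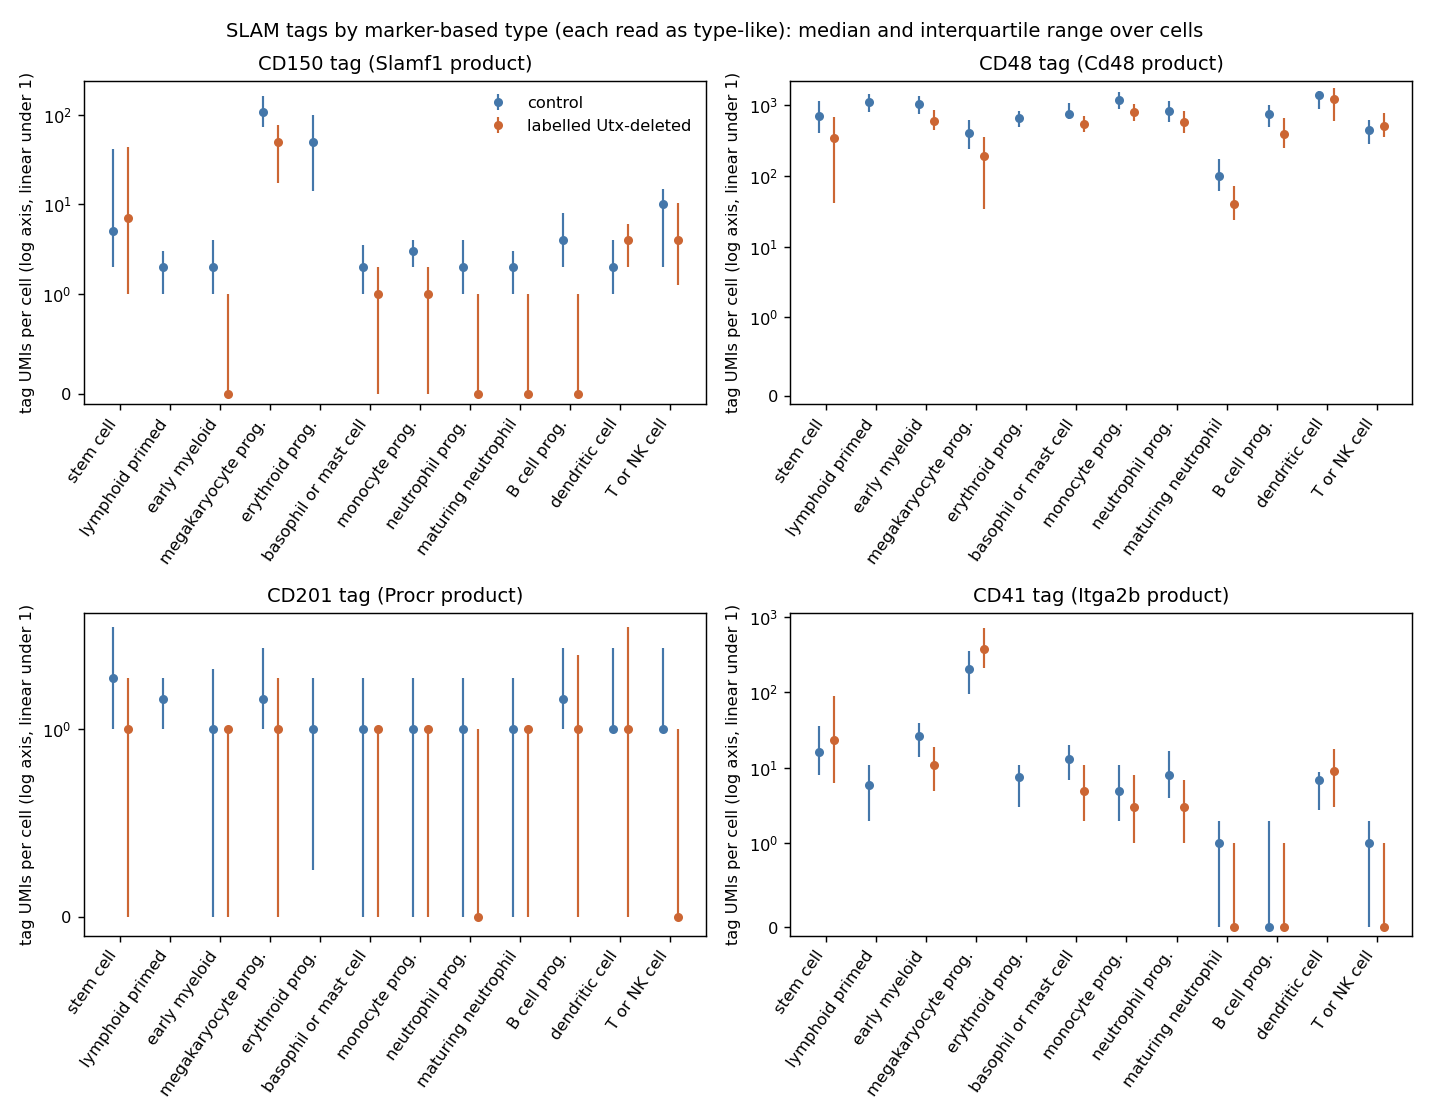
Tag UMIs per cell (y axis, log scale, linear under 1) of CD150, CD48, CD201 and CD41 in marker-based types with at least 20 cells in a library (x axis), control in blue and the Utx-labelled library in orange; points are medians over cells and bars the interquartile range. CD150 is high in the megakaryocyte and erythroid types, CD48 is lowest in maturing neutrophils, CD201 is near background in all types, and CD41 peaks in the megakaryocyte type at 202 and 374 UMIs.

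**Figure D2:**
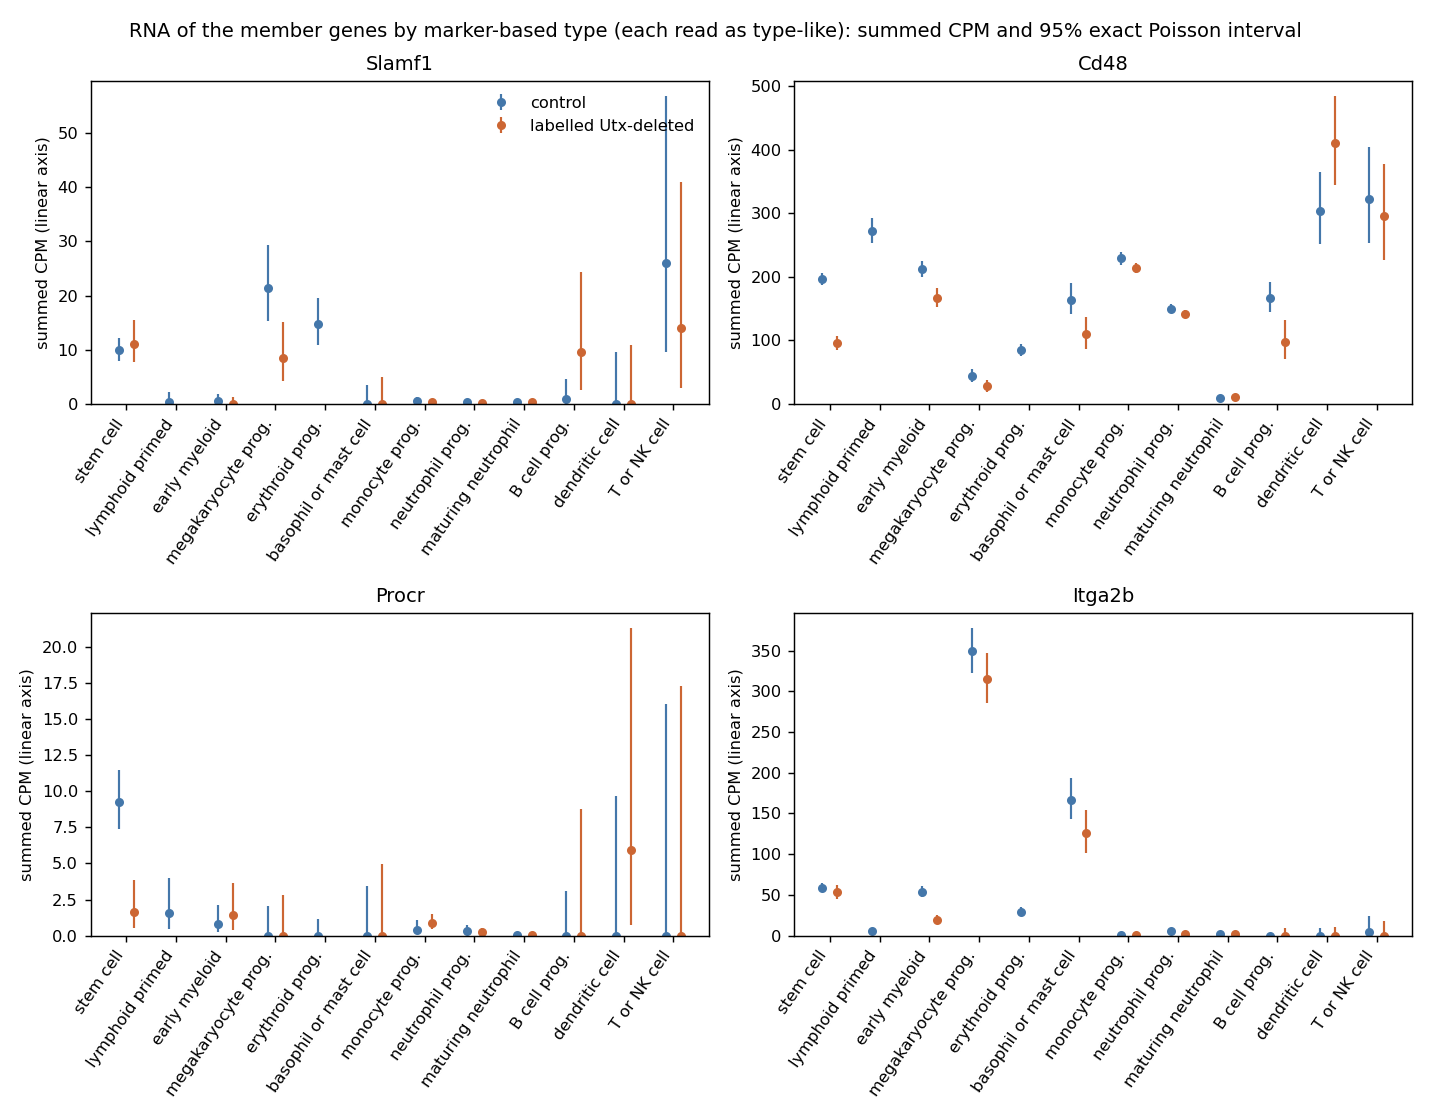
RNA of Slamf1, Cd48, Procr and Itga2b as CPM of UMIs summed over the cells of a type (y axis, linear) in types with at least 20 cells in a library (x axis), with exact Poisson intervals, control in blue and the Utx-labelled library in orange. Procr stands at 9.27 CPM in control and 1.64 CPM in Utx-labelled stem-cell-like cells, while Itga2b in the megakaryocyte type is 349 and 315 CPM.

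The share of cells with a UMI of each gene separated stem-cell-like from maturing-neutrophil-like cells at very different depths, with median UMIs of 23309.5 and 9806.5 in the control. Slamf1 was seen in 14.6% of control stem-cell-like cells and 0.286% of maturing-neutrophil-like cells, and after thinning every cell to 2000 UMIs the shares were 2.21% and 0.0391%. Procr was seen in 16.02% and 0.0573%, and after thinning in 2.76% and 0%. Itga2b was seen in 53.9% and 0.63%, and after thinning in 14.1% and 0.117%. Cd48 was seen in 78.7% and 6.07%, and after thinning in 30.1% and 0.939%. The stem-cell-like share was above the maturing-neutrophil-like share with and without thinning for all 4 genes, and thinning left out 122 control maturing-neutrophil-like cells and no stem-cell-like cell.

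Cell by cell, tag and RNA agreed most for CD48 and CD41, less for CD150 and hardly for CD201. Among the 1775 control cells outside the maturing-neutrophil gate, the Spearman rho of the tag, as a centred log-ratio over the 13 surface tags, with its own gene was 0.56 for CD41 and 0.44 for CD48. It was 0.36 for CD150 and 0.10 for CD201. In the 1620 such Utx-labelled cells the values were 0.40, 0.36, 0.23 and 0.03 in the same order. These cells share a library, depth and the tag denominator, and the CD48 tag itself followed total UMIs with a rho of 0.56 in the control and 0.39 in the other library. Of 13558 genes ranked by rho with each tag in control cells outside the gate, the own gene was at rank 2 for CD48, rank 2 for CD41, rank 27 for CD150 and rank 170 for CD201. In the Utx-labelled library the ranks were 5, 13, 40 and 789. Over all kept cells they were 58, 300, 25 and 213 in the control and 19, 887, 45 and 1203 in the Utx-labelled library. Cd48, Itga2b and Procr thus ranked further down over all kept cells in both libraries, and Slamf1 in the Utx-labelled library only.

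The genes that led the ranking over all control cells differed by tag. For CD150 they were Mfsd2b (rho 0.28), Aqp1 (0.28) and F2r (0.28), genes of erythroid and platelet cells, and for CD41 they included Cbfa2t3 (0.56) and Kctd1 (0.56). For CD48 they were Ppia (0.75), Rpsa (0.75) and Tpt1 (0.74), abundant housekeeping and ribosomal genes, in cells where the CD48 tag followed total UMIs with a rho of 0.81. For CD201 they were Gm42418 (0.20), Cmss1 (0.17) and Gphn (0.15).

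Within stem-cell-like cells CD150 and CD48 agreed more closely with their genes than outside the gate as a whole, while CD41 did so in the Utx-labelled library and CD201 in the control. The rho was 0.44 in the control and 0.45 in the Utx-labelled library for CD150 with Slamf1, and 0.62 and 0.72 for CD48 with Cd48. It was 0.51 and 0.57 for CD41 with Itga2b, and 0.26 and -0.0052 for CD201 with Procr, which had 5 positive cells in the Utx-labelled type. Control stem-cell-like cells with a Slamf1 UMI had a median CD150 tag of 91 UMIs against 4 in those without, and the Utx-labelled cells had 66 against 3.

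Binned by tag outside the maturing-neutrophil gate, Slamf1 was concentrated at the CD150-high end, while Cd48 was present in every bin. In the highest of 10 bins by CD150, Slamf1 was 32.0 CPM (26.9 to 37.9) in the control and 15.5 CPM (11.9 to 19.9) in the Utx-labelled library, and in the bin below it was 12.4 CPM and 0. From the lowest to the highest bin by CD48, Cd48 went from 54.8 to 242 CPM in the control and from 51.0 to 220 CPM in the other library. Itga2b went from 1.25 to 212 CPM and from 0.953 to 126 CPM across the CD41 bins. Procr reached 13.9 CPM (10.0 to 18.8) in the highest CD201 bin of the control and 2.94 CPM (1.34 to 5.58) in that of the other library, and was at most 3.14 CPM in any lower bin.

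**Figure D3:**
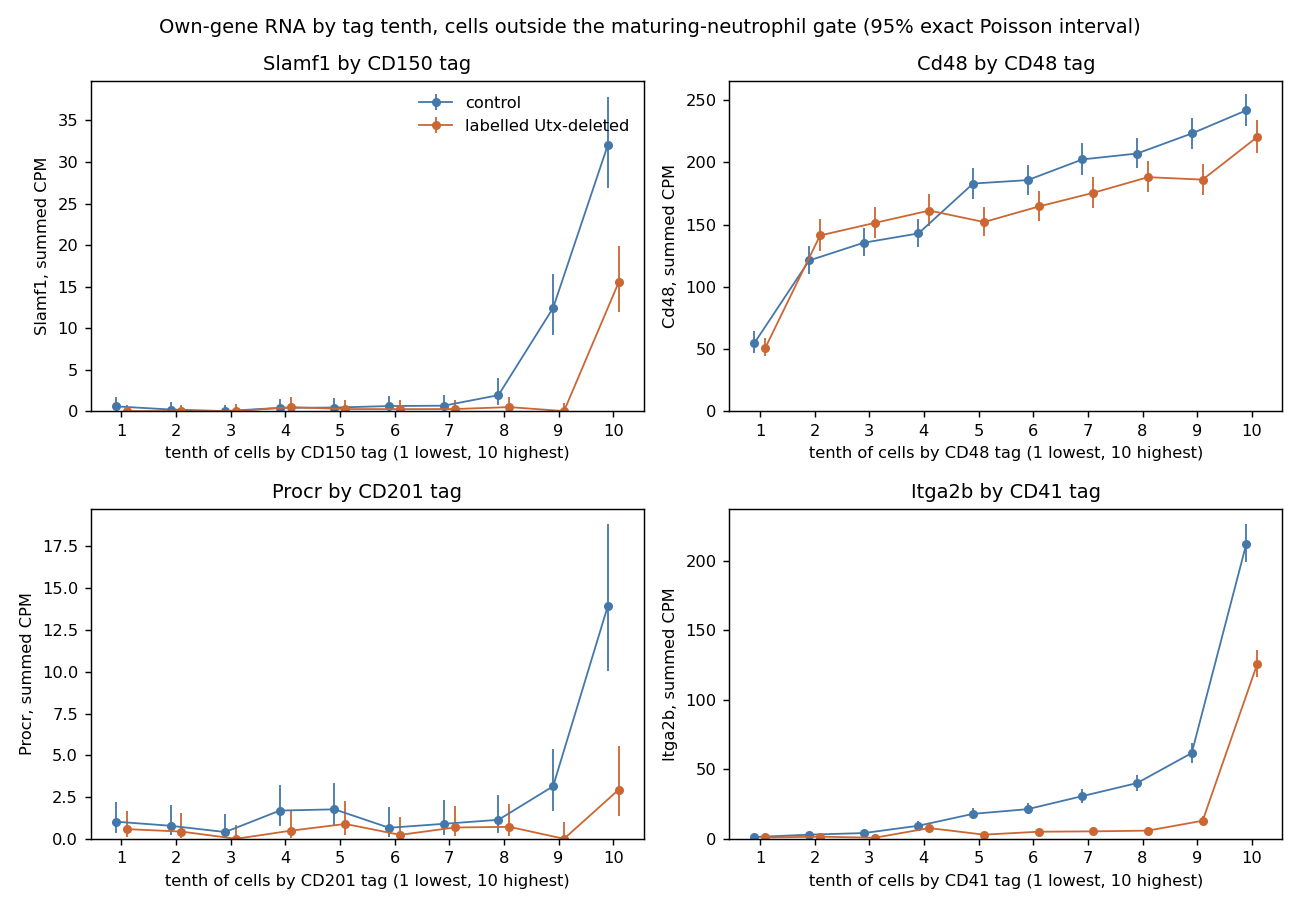
Summed CPM of each gene (y axis, linear) in 10 bins of equal cell number ranked by its own tag (x axis), for cells outside the maturing-neutrophil gate, with exact Poisson intervals, control in blue and the Utx-labelled library in orange. Slamf1, Procr and Itga2b lie mainly in the highest bin, at 32.0, 13.9 and 212 CPM in the control, whereas Cd48 is already 54.8 CPM in the lowest.

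The question of the design is how the Utx-labelled library differs from the control. Over all kept cells, Slamf1 was 2.11 CPM in the control and 0.839 CPM in the Utx-labelled library, a log2 ratio of -1.32 (-1.69 to -0.98). Procr was 0.925 and 0.254 CPM, a log2 ratio of -1.83 (-2.52 to -1.26). Itga2b was 18.3 and 8.05 CPM, a log2 ratio of -1.18 (-1.30 to -1.07). Cd48 was 83.2 and 67.8 CPM, a log2 ratio of -0.30 (-0.34 to -0.25). Slamf1, Procr and Itga2b, 3 of the 4 genes, were thus more than 2-fold lower, where 5.36% of 13558 genes were as much lower and 1.39% as much higher. The control held more stem-, megakaryocyte- and erythroid-like cells. Equal weight was also given to each of the 10 types with at least 20 cells in both libraries, which left out the erythroid-progenitor-like and lymphoid-primed-like types. The log2 ratios were then -0.45 for Slamf1, -0.10 for Procr, -0.31 for Itga2b and -0.20 for Cd48, and none passed 2-fold. The Procr value depends on 2 UMIs in 21 Utx-labelled dendritic-cell-like cells, which put that type at 5.90 CPM. In hashtag 2 cells alone the ratios were -0.63 for Slamf1 and -0.87 for Itga2b, also short of 2-fold, and -1.17 for Procr.

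The mean member tags were also lower over all cells. The mean CD150 tag was 7.06 UMIs in the control and 2.50 in the Utx-labelled library, a log2 ratio of -1.50. For CD48 the means were 344 and 228 UMIs (-0.59), for CD201 they were 1.93 and 1.32 UMIs (-0.54, but 0.056 as a mean centred log-ratio, with equal medians of 1), and for CD41 they were 8.54 and 6.91 UMIs (-0.31, but 0.36 in hashtag 2 cells alone). Without the 2 barcodes of over 50000 tag UMIs these ratios were -1.50, -0.60, -0.54 and -0.31. By raw means CD150 was the only member past 2-fold, where 15.4% of the 13 surface tags were as much lower and 0% as much higher. As a mean centred log-ratio (-0.48) CD150 was not past 2-fold. By medians CD48 was also more than 2-fold lower, at 136 and 54 UMIs. The 13 tags had a median log2 ratio of -0.54 and 10 of them were lower, and whether staining differed between the libraries was not tested. Outside the maturing-neutrophil gate the RNA ratios were -1.42 for Slamf1, -1.67 for Procr, -1.07 for Itga2b and -0.14 for Cd48, where 4.57% of 12540 genes were more than 2-fold lower and 1.56% higher.

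Within stem-cell-like cells, where the number of cells no longer enters, the members parted ways. CD150 and Slamf1 were near level, CD48 and Cd48 and CD201 and Procr were lower in both readouts, and CD41 was higher as a tag with Itga2b RNA near level. Slamf1 was 9.95 CPM (88 UMIs) in the control and 11.1 CPM (34 UMIs) in the Utx-labelled library, a log2 ratio of 0.19 (-0.45 to 0.75) that was -0.53 in hashtag 1 and 0.81 in hashtag 2 cells. The mean CD150 tag was 34.0 and 36.6 UMIs, a log2 ratio of 0.11, and in hashtag 1 cells alone it was -0.22. The share of CD150-high cells was 34.5% (29.6% to 39.7%) and 43.6% (34.2% to 53.4%), and these intervals overlap.

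Cd48 was 196 CPM in control and 95.1 CPM (84.4 to 107) in Utx-labelled stem-cell-like cells, a log2 ratio of -1.04 (-1.23 to -0.86). In the Utx-labelled library the basophil-or-mast-cell-like type was at 110 CPM and the B-cell-progenitor-like type at 97.7 CPM, and in both libraries the interval of stem-cell-like cells overlapped theirs. The mean CD48 tag was 814 and 409 UMIs, a log2 ratio of -0.99, with medians of 697 and 341. The number of CD48 tag UMIs per Cd48 UMI was 170 (162 to 178) and 155 (138 to 175), so RNA and tag were lower by about the same factor. By hashtag, Cd48 was 177 and 218 CPM in the control and 128 and 74.4 CPM in the Utx-labelled library, so both Utx-labelled populations were below both control populations, but the log2 ratio was -0.46 for hashtag 1 and -1.54 for hashtag 2. After thinning to 2000 UMIs the ratio was -0.71, short of 2-fold.

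Procr had 82 UMIs in 58 control stem-cell-like cells, 9.27 CPM, and 5 UMIs in 5 Utx-labelled cells, 1.64 CPM (0.532 to 3.82), a log2 ratio of -2.25 (-4.16 to -1.22). Both hashtag populations showed it, with 8.40 and 10.4 CPM in the control and 0.859 and 2.13 CPM in the Utx-labelled library. The mean CD201 tag was 3.92 and 1.42 UMIs, a log2 ratio of -1.47, and per 10000 surface tag UMIs it was -0.93, short of 2-fold. As a mean centred log-ratio in natural log units the difference was -0.166, a much smaller one. Only 1 of 110 Utx-labelled stem-cell-like cells was CD201 high (0.909%), against 27 of 362 in the control. Cd48 and Procr, 2 of the 4 genes, were thus more than 2-fold lower in this type, where 4.39% of 12073 genes were as much lower and 3.04% as much higher.

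Itga2b was 58.8 CPM (520 UMIs) in control and 53.1 CPM (162 UMIs) in Utx-labelled stem-cell-like cells, a log2 ratio of -0.14 (-0.41 to 0.11). The ratio was 0.40 (0.16 to 0.62) under a stricter marker gate and -1.33 (-3.03 to -0.32) after thinning, so its direction is not settled. The mean CD41 tag was 31.6 and 76.0 UMIs, a log2 ratio of 1.27, with medians of 16 and 23.5, and the 5 cells with the most CD41 carried 15.8% and 34.2% of it. CD41 was the single surface tag more than 2-fold higher in this type (7.69% of 13), where 38.5% of the tags, CD201 among them, were as much lower and the median log2 ratio was -0.34. By hashtag the CD41 means were 40.9 and 20.6 UMIs in the control and 89.98 and 67.1 UMIs in the Utx-labelled library, which do not overlap. The median of hashtag 1 cells was nevertheless 20 in the control and 18 in the other library, against 14 and 28 for hashtag 2, and 5 cells carried 59.1% of the CD41 tag of the Utx-labelled hashtag 1 cells.

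The RNA of the partner subunit went with the CD41 tag. Itgb3 was 12.998 CPM (10.7 to 15.6) in control and 42.3 CPM (35.3 to 50.2) in Utx-labelled stem-cell-like cells, a log2 ratio of 1.70 (1.33 to 2.08). By hashtag it was 16.2 and 9.43 CPM in the control and 37.8 and 45.2 CPM in the Utx-labelled library, and it was 17.8 and 72.1 CPM under the stricter marker gate and 10.96 and 37.0 CPM under the looser one. Over all kept cells Itgb3 was instead lower, at 17.5 and 10.7 CPM. Whether Itgb3 has a part in the CD41 tag level was not tested.

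Stem-cell-like cells with platelet transcripts carried most of the CD41 tag. Of the control cells 31.8%, and of the Utx-labelled cells 32.7%, had a UMI of the 6 megakaryocyte markers, whose summed level was 103 CPM and 238 CPM over the type. The sum was mostly Pf4. Of the 910 and 725 marker UMIs, 558 and 560 were Pf4 in 47 and 13 cells high for both CD150 and CD48 (cut-offs below). Gp9 was instead lower, at 5.76 and 1.97 CPM, and Gp1bb had 11 and 1 UMIs. In cells with a UMI of the 6 markers the CD41 median was 36 UMIs in the control and 131 in the Utx-labelled library. Their Itga2b was 111 and 101 CPM and their Itgb3 29.7 and 89.5 CPM. In cells with no such UMI the CD41 medians were 12 and 10.5 UMIs and the means 17.6 and 25.4, Itga2b was 35.3 and 25.7 CPM, and Itgb3 was 5.56 CPM (3.85 to 7.77) and 15.4 CPM (10.4 to 22.03). In cells with no UMI of the 6 markers the mean and the median of CD41 thus went opposite ways, while Itgb3 was higher in both sets.

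Megakaryocyte-progenitor-like cells, 66 in the control and 35 in the Utx-labelled library, showed the same split between CD41 and its RNA. Itga2b was 349 and 315 CPM, a log2 ratio of -0.15 (-0.33 to 0.03), while the mean CD41 tag was 278 and 508 UMIs, a log2 ratio of 0.87. The CD41 tag UMIs per Itga2b UMI were 28.8 (26.7 to 31.2) and 43.1 (39.2 to 47.6). Itgb3 was 118 CPM (103 to 135) and 220 CPM (196 to 247), and by hashtag 125 and 108 CPM against 190 and 245 CPM. The CD41 means by hashtag, 324 and 206 UMIs against 504 and 511 UMIs, did not overlap either. In these cells Slamf1 was 21.5 and 8.41 CPM (39 and 11 UMIs), a log2 ratio of -1.26 (-2.47 to -0.36), and the CD150 tag median was 107.5 and 49 UMIs. Slamf1 was the 1 gene of the 4 more than 2-fold lower, where 3.4% of 9551 genes were as much lower and 2.11% as much higher.

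In other types the member tags past 2-fold were mostly lower in the Utx-labelled library. In early-myeloid-like cells, which Prg2 and Prg3 of eosinophils and Cpa3 of mast cells led and of which 81 of 184 and 45 of 105 lay near a neighbouring type, Itga2b was 53.8 and 19.6 CPM, a log2 ratio of -1.43, and the CD41 tag mean 30.4 and 13.9 UMIs (-1.13). In this type 12 of the 13 surface tags were lower, 7 of them more than 2-fold, and their median log2 ratio was -1.03, close to that of CD41. The CD150 tag (-2.59, means of 4.97 and 0.829 UMIs) and the CD201 tag (-1.14) were among them. In basophil-or-mast-cell-like cells Cd48 was 164 and 110 CPM, the CD41 tag mean 17.6 and 8.33 UMIs (-1.08), and Slamf1 and Procr had 0 UMIs in both libraries. Of the 13 surface tags in this type, 3 were more than 2-fold lower and 4 more than 2-fold higher. The mean CD117 tag was 116 and 416 UMIs. Of the markers of this type, Cma1 had 12 and 888 UMIs over all kept cells and Prss34 6075 and 2487. Whether the 2 libraries hold the same mix of cells here was not tested. In T-or-NK-cell-like cells, 25 and 26 of them, CD150 (-1.16), CD201 (-1.16) and CD41 (-1.96) were lower. There 11 of the 13 surface tags were lower, 5 of them more than 2-fold. In that type 1 tag was more than 2-fold higher, and the median log2 ratio was -0.63. In dendritic-cell-like cells CD201 was higher (1.26), with a median of 1 UMI in both libraries, and was the 1 tag of 13 past 2-fold. Of the dendritic markers, Siglech had 52 and 1 UMIs over all kept cells, Cox6a2 140 and 14, and H2-Aa 2648 and 3781. In maturing-neutrophil-like cells Cd48 was 9.38 and 11.5 CPM, a log2 ratio of 0.30 (0.14 to 0.46), from 574 UMIs in 318 cells and 828 UMIs in 296 cells. The share of cells with a Cd48 UMI was thus 6.07% and 5.30%, and after thinning 0.939% and 1.14%, while the CD48 tag median was 100 and 40 UMIs. None of the 4 genes was past 2-fold in this type, but the CD150 tag was, with means of 2.92 and 1.33 UMIs (-1.14) and medians of 2 and 0. Of 14035 genes in this type, 4.87% were lower and 3.68% higher by that much. Of the 13 surface tags there, 11 were lower, 2 of them more than 2-fold, and 0 were more than 2-fold higher. Their median log2 ratio was -0.50. The neutrophil-progenitor-like type was not compared, because its 10 leading genes held the macrophage marker Vcam1 and none of its own.

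**Figure D4:**
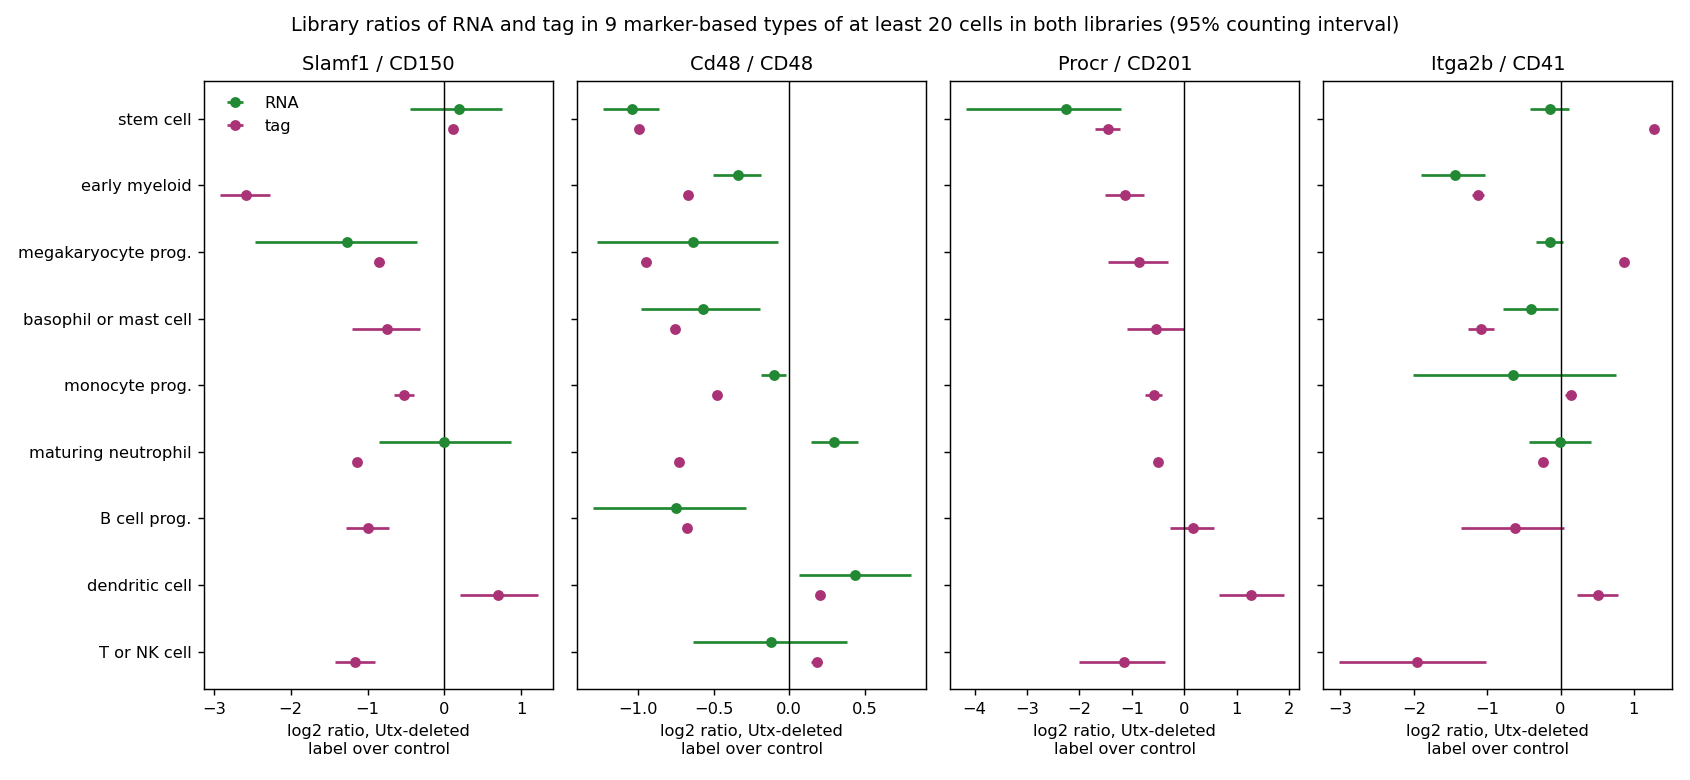
Log2 ratio of the Utx-labelled library over the control (x axis) for each gene (green) and its tag (purple) in the 9 compared types (y axis), with 95% counting intervals; RNA points with under 20 UMIs over both libraries are left out. The tag intervals leave out the spread between cells. In the stem type CD41 lies at 1.27 and Itga2b at -0.14, whereas CD48 and Cd48 lie together at -0.99 and -1.04.

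The 2 SLAM tags were used together to divide the stem-cell-like cells into 4 quadrants, with CD48 low set at or under the 90th percentile of maturing-neutrophil-like cells, 288 UMIs in the control and 148 in the Utx-labelled library. CD150-high CD48-low cells, the phenotype used to enrich long-term stem cells, made up 29 of 362 control cells, 8.01% (5.43% to 11.3%), and 23 of 110 Utx-labelled cells, 20.9% (13.7% to 29.7%). As a share of the library they were 0.414% and 0.319%. By hashtag the shares were 12.95% and 3.61% in the control and 14.3% and 25.4% in the Utx-labelled library, so hashtag 1 cells did not differ beyond counting error. With the control cut-offs in both libraries the Utx-labelled share was 26.4%.

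RNA that the quadrants did not use followed them. In CD150-high CD48-low cells Slamf1 was 34.5 CPM in the control and 26.5 CPM in the Utx-labelled library, and Cd48 was 13.8 and 5.57 CPM. Mecom, a transcription factor of long-term stem cells, was 1288 and 1284 CPM there, against 509 and 240 CPM in CD150-low CD48-high cells. Mpo, the granule enzyme of myeloid progenitors, was 27.6 and 25.1 CPM against 892 and 1873 CPM. The CD150-high CD48-low cells also carried platelet RNA, with Pf4 at 203 and 92.0 CPM and median CD41 tags of 46 and 105 UMIs. In CD150-high CD48-high cells Pf4 was 237 CPM (218 to 258) and 899 CPM (826 to 977), with median CD41 tags of 38 and 62 UMIs. The control interval overlapped that of CD150-high CD48-low cells (168 to 244), whereas the Utx-labelled intervals lay apart. The latter rest on 560 Pf4 UMIs in 13 of 25 CD150-high CD48-high cells and 66 in 11 of 23 CD150-high CD48-low cells. They leave out the spread between cells. Vwf went the other way in the Utx-labelled library only. It was 34.8 CPM (22.5 to 51.4) in CD150-high CD48-low cells and 9.64 CPM (3.54 to 21.0) in CD150-high CD48-high cells, from 5 positive cells in each. In the control the levels were 29.3 CPM (17.1 to 46.9) and 25.1 CPM (19.1 to 32.4), which overlapped.

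Cd48 RNA in CD150-high CD48-low cells rested on 8 and 4 UMIs, with overlapping intervals. In the other quadrants, whose CD48 cut-off was lower in the Utx-labelled library, it was 262 and 183 CPM in CD150-low CD48-high cells, 118 and 70.7 CPM in CD150-high CD48-high cells, and 85.6 and 9.73 CPM in CD150-low CD48-low cells. In the last quadrant, 35 and 16 cells, Hlf was 694 and 664 CPM and Mecom 1115 and 1316 CPM, while Slamf1 had 0 UMIs in both libraries. Procr was highest in that quadrant of the control, at 44.6 CPM (28.9 to 65.8) from 25 UMIs. This overlapped the 24.1 CPM (13.2 to 40.5) of control CD150-high CD48-low cells. In CD150-low CD48-low cells of the Utx-labelled library Procr was 2.43 CPM from 1 UMI. Sca1, a further stem cell tag, had medians of 56 and 10 UMIs in CD150-low CD48-low cells and of 78 and 19 UMIs in CD150-high CD48-low cells.

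**Figure D5:**
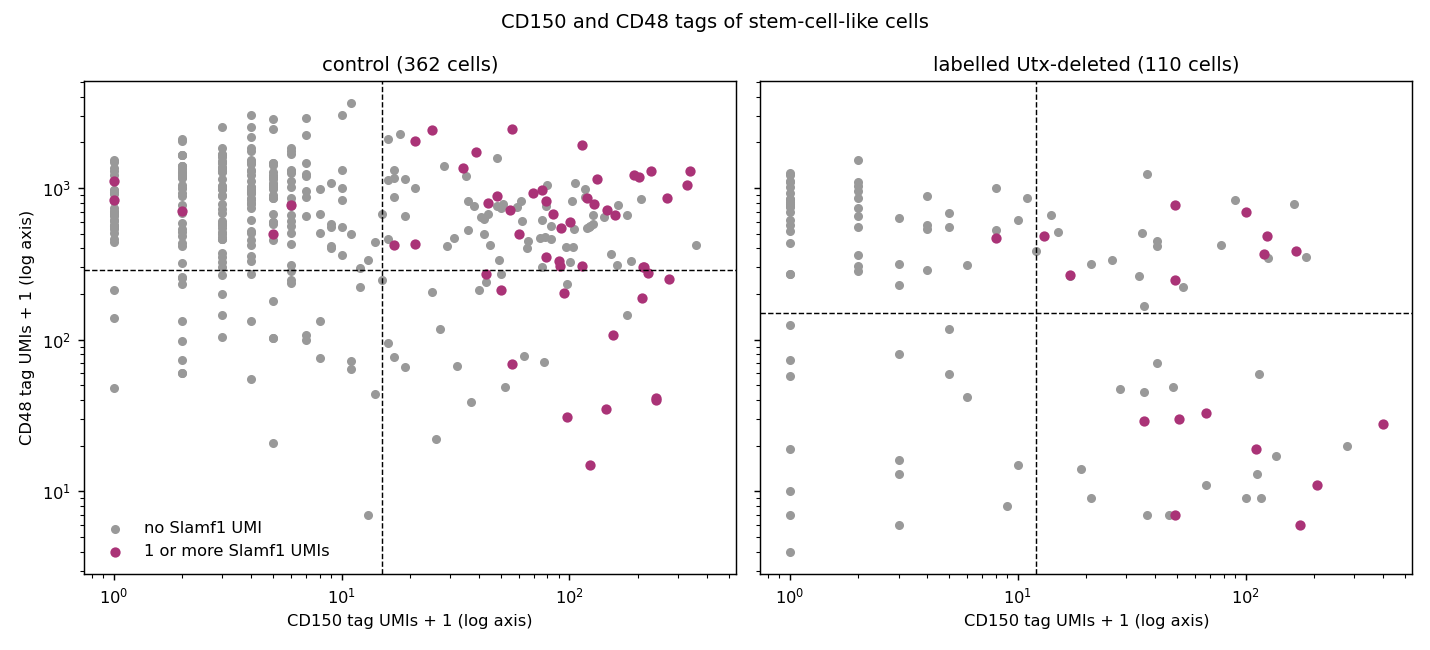
CD48 tag UMIs + 1 (y axis, log scale) against CD150 tag UMIs + 1 (x axis, log scale) of each stem-cell-like cell, 362 control cells on the left and 110 Utx-labelled cells on the right; purple points have a Slamf1 UMI and dashed lines are the cut-offs of each library. The lower right quadrant holds 29 control and 23 Utx-labelled cells.

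Few stem-cell-like cells had UMIs of both Slamf1 and Procr, each of which was seen in a small share of them. In the control, 53 of 362 cells had a Slamf1 UMI and 58 a Procr UMI, and 4 had both, and in the Utx-labelled library 17 and 5 of 110 cells had one and 1 had both. Whether this overlap differs from that of 2 sparsely detected genes was not tested. Control cells with Procr had a median CD150 tag of 3 UMIs, against 5 in cells without it. Their median CD48 tag was 415.5 against 774.5 UMIs, and their Sca1 tag 62 against 15.5. Their Hlf was 518 against 222 CPM and their Pf4 3.93 against 91.3 CPM. Control cells with Slamf1 had a CD41 tag of 48 against 14 UMIs, Pf4 at 239 against 50.2 CPM and Flt3, a receptor of lymphoid-primed progenitors, at 12.7 against 102 CPM. The CD150 tag went with CD41 in these cells (rho 0.48 in the control and 0.56 in the Utx-labelled library) and against CD48 (-0.37 and -0.50), over 362 and 110 cells that share a tag denominator.

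A gate on all 4 tags over all cells took CD150 and CD201 in the top 10% and CD48 and CD41 in the lower 50%. Its cut-offs were centred log-ratios over both libraries, where most cells were maturing-neutrophil-like. Control means were 3.29 for CD48 and -0.17 for CD41 in stem-cell-like cells, against 1.86 and -2.09 in maturing-neutrophil-like cells. The lower 50% thus favoured the latter, so the gate cannot show how well the tags mark stem cells. This gate held 15 of 7011 control cells, 0.214% (0.12% to 0.353%), and 12 of 7206 Utx-labelled cells, 0.167% (0.0861% to 0.291%). Of these, 14 and 12 were maturing-neutrophil-like and 0 were stem-cell-like, and none of the 4 genes had a UMI in them. Restricted to cells outside the maturing-neutrophil gate, it held 8 control cells, 2 of them stem-cell-like, and 1 Utx-labelled cell, which was stem-cell-like.

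The SLAM family list of 12 genes and adaptors had 9 above 100 UMIs over all kept cells, of which 0 were more than 2-fold higher and 3 more than 2-fold lower in the Utx-labelled library, with a median log2 ratio of -0.61 against -0.11 over all genes, of which 5.36% were as much lower and 1.39% as much higher. The 3 were Slamf1, Cd244a, the receptor that binds CD48 (11.4 and 2.34 CPM, -2.28), and Slamf6 (3.67 and 0.874 CPM, -2.06), while Cd84 was 61.0 and 57.7 CPM. In stem-cell-like cells 5 passed the minimum of 20 UMIs and 3 were more than 2-fold lower (4.39% of all genes, with 3.04% higher), namely Cd48, Ly9 (9.61 and 3.61 CPM, -1.31) and Cd244a. Cd244a was 47.8 CPM (43.4 to 52.6) and 5.90 CPM (3.50 to 9.33), a log2 ratio of -2.94, a larger difference than that of Cd48. The CD48 receptor and its ligand were thus both lower in this type.

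Of the 8 genes of the protein C receptor system, 6 passed over all cells, 0 were more than 2-fold higher (1.39% of all genes) and 3 lower (5.36%), with a median of -1.12 against -0.11 over all genes: Procr and the thrombin receptors F2r (14.2 and 4.21 CPM) and F2rl3 (2.45 and 0.691 CPM). In stem-cell-like cells 6 passed and 2 were more than 2-fold lower (4.39% of all genes) and none higher (3.04%), with a median of -0.57 against -0.01. The 2 were Procr and Thbd, the thrombomodulin gene (27 and 2 UMIs). F2r was 60.2 and 46.2 CPM in this type.

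Of the 9 genes of the CD41 complex and platelet receptors, 3 of which (Gp9, Gp1bb and Gp6) are also markers of the megakaryocyte type, 7 passed over all cells, with 5 more than 2-fold lower (5.36% of all genes) and none higher (1.39%), and a median of -1.18 against -0.11. Among them were Itga2b, Gp5 (4.20 and 0.804 CPM), Gp9 (2.49 and 0.411 CPM) and Vwf (4.72 and 2.33 CPM). In stem-cell-like cells 6 passed, Gp5 and Gp9 were more than 2-fold lower (4.39% of all genes), and Itgb3 alone was more than 2-fold higher (3.04%), with a median of -0.19 against -0.01 over all genes.

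All 8 stem cell transcription factors passed over all cells, and Hlf, Mecom, Meis1 and Hoxa9 were more than 2-fold lower there (5.36% of all genes), with a median of -0.96 against -0.11, in a library with fewer stem-cell-like cells. These same 4 are markers of that type, and within it 0 were past 2-fold in either direction (4.39% of all genes were lower and 3.04% higher) and the median was 0.04 against -0.01. Mecom was 605 and 640 CPM and Gata2, which was not used to define the type, was 141 and 207 CPM (0.55).

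The genes whose levels over the 22 sums were most like each member were also distinct. For Slamf1 they were BC052040 (Pearson r 0.86), Adam10 (0.85) and Rabgap1l (0.85). For Cd48 they were H2-M3 (0.95), Psmb8 (0.93) and Aim2 (0.93), genes of antigen handling and of innate sensing. For Procr they were Gm4951 (0.78), 4933406J09Rik (0.77) and Palld (0.77), and for Itga2b they were Pdzk1ip1 (0.96), Fgf3 (0.93) and Gata1 (0.92), the last a master factor of megakaryocytes and red cells.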

How the data were processed

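The counts used here are gene and antibody-tag UMI counts per barcode, which the authors deposited as filtered matrices made with Cell Ranger 7.1.0 on mm10, per the submitters' processing notes; the annotation and cell calling are not given in the sources used here. The members and gene lists were chosen with earlier results of these data known. The rule for named genes covers the 4 members, the members of 4 lists (SLAM family, protein C system, CD41 complex, stem cell factors), and the 3 genes most like each member or tag. Some genes under this rule are not reported here. Kdm6a, cell type markers and their leading genes, and Pf4, Flt3 and Mpo in the stem-cell-like subsets are named beside it.

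Barcodes with at least 500 genes and under 10% mitochondrial UMIs passed. The doublet caller (Scrublet in scanpy 1.11.5) set no working threshold (0.0134% of control barcodes and 0% of the others), so the 6% with the highest scores were left out, 467 and 463 barcodes. Kept cells included 204 control and 451 Utx-labelled barcodes with both hashtags.

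Types came from 12 lists of 6 markers, with a gate set after the counts were seen. Cells with at least 1% of UMIs from the maturing-neutrophil list were placed there. Others took the list with the highest mean z-score among those with at least 3 markers and 5 UMIs, and 88 and 44 cells stayed unassigned. In the stem type 47 and 20 cells lay within 0.25 of another type. Macrophage and endothelial lists served as a check only. Tag-high and CD48-low cut-offs were also chosen after seeing the data.

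CPM are UMIs summed over cells, with exact Poisson intervals. RNA ratios had 1 UMI added to each sum and exact conditional intervals, for genes with at least 100 UMIs (20 within types). Tag ratios are of mean raw UMIs. On simulated counts, 100% of 200 genes changed 4-fold over all kept cells were recovered among 13533 genes. The changed genes had at least 500 UMIs, which Slamf1 and Procr did not reach, and the only noise was counting error. Changes of 2-fold and variation between libraries or cells were not simulated, so the recovery does not cover the differences reported here. With 1 library per group no test was made. Alternatives were TMM scaling, thinning, other gates, minimums and filters, each hashtag alone and other tag scales. Python 3.11.15, numpy 2.4.6, pandas 2.3.3 and scipy 1.17.1 were used.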

Additional observations from a re-analysis of the deposited data

Results flagged for a closer look

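Among the 4 compared types with at least 50 cells in both libraries, 3 readouts had 95% counting intervals on opposite sides of no difference in a pair of types, and none of these differences between types was tested. For tags these intervals leave out the spread between cells. In stem-cell-like cells the CD150 interval was 0.056 to 0.16, while the quartiles were 2 and 41 UMIs in the control and 1 and 43.75 in the Utx-labelled library. Cd48 RNA had a log2 ratio (Utx-labelled library over control) of -1.04 in stem-cell-like cells and 0.30 in maturing-neutrophil-like cells. In the latter the share of cells with a Cd48 UMI was 6.07% in the control and 5.30% in the Utx-labelled library, and the CD48 tag had a log2 ratio of -0.73. The CD150 tag had a log2 ratio of 0.11 in stem-cell-like cells and -2.59 in early-myeloid-like cells, where its medians were 2 and 0 UMIs and 6 of 184 control cells were above 14 UMIs, with a highest value of 142. The stem-cell-like ratio was -0.22 in hashtag 1 cells, on the same side as the early-myeloid-like one. The CD41 tag had a log2 ratio of 1.27 in stem-cell-like cells and -1.13 in early-myeloid-like cells. The median over the 13 surface tags was -0.34 in stem-cell-like and -1.03 in early-myeloid-like cells, where 12 tags were lower and 7 more than 2-fold, and the centred log-ratio difference there was -0.34 for CD150 and -0.44 for CD41 in natural log units.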

How the results depend on the processing

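No paired analysis was possible because each group has 1 library. Counts of UMIs limit the results for Procr in stem-cell-like cells of the Utx-labelled library (5 UMIs), for Slamf1 in every type, and for tag values near the background of maturing neutrophils. The intervals leave out the variation between animals, and differences of cell calling or staining between the libraries cannot be told apart from the groups. The causes of the shifts below were not tested, apart from those built into an alternative, such as fewer cells or UMIs.

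Over all kept cells, 188 genes were more than 2-fold higher and 727 lower in the Utx-labelled library. A 1.5-fold limit gave 430 and 1435, a minimum of 20 UMIs gave 407 and 1252, a minimum of 500 UMIs gave 77 and 353, and thinning to 2000 UMIs gave 59 and 285. For the RNA ratios over all kept cells, 20 of 36 values stayed within the counting interval and all kept their direction. TMM scaling, which took a log2 shift of -0.125 off every ratio, gave -0.17 for Cd48 and -1.06 for Itga2b. Equal weights for the 10 types with at least 20 cells in both libraries gave -0.45 for Slamf1, -0.20 for Cd48, -0.10 for Procr and -0.31 for Itga2b. Hashtag 1 cells gave -1.99 for Slamf1, -0.47 for Cd48 and -2.76 for Procr, and hashtag 2 cells gave -0.63, -0.076 and -1.17, with -0.87 for Itga2b. Thinning gave -0.16 for Cd48 and -1.68 for Itga2b, and leaving out both-hashtag barcodes gave -0.25 for Cd48.

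In stem-cell-like cells 26 of 35 RNA ratios stayed within the interval. Cd48 was -0.46 in hashtag 1 cells, -1.54 in hashtag 2 cells, -1.33 under the stricter marker gate and -0.71 when thinned. Slamf1 was -0.53 and 0.81 in hashtag 1 and 2 cells and 0.78 under the looser gate, and Itga2b was 0.40 under the stricter gate and -1.33 when thinned. In control megakaryocyte-progenitor-like cells, Itga2b was 296 CPM under the looser and 396 CPM under the stricter gate, and the mean CD41 tag was 368 UMIs under the stricter gate.

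For the tags, 34 of 39 ratios over all cells and 25 of 32 in stem-cell-like cells stayed within the range of the hashtag populations. The values of hashtag 1 and hashtag 2 cells set that range and are among the ratios counted, so those values could leave it only by turning direction. Over all cells the mean centred log-ratio gave -0.48 for CD150 and turned CD201 to 0.056, medians gave 0 for CD201 and -1.33 for CD48, and hashtag 2 cells turned CD41 to 0.36. In stem-cell-like cells hashtag 1 turned CD150 to -0.22, and the looser gate gave 0.45 for CD150 and 1.09 for CD41. Per 10000 surface tag UMIs the ratios were 0.64 for CD150, -0.46 for CD48, -0.93 for CD201 and 1.80 for CD41.

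The gate on 4 tags moved most with its settings. Its control and Utx-labelled shares were 0.451% and 0.0617% among cells outside the maturing-neutrophil gate and 0.0998% and 0% with raw UMIs. They were 1.34% and 0.833% with a limit at the top 20%, and 0.0285% and 0.0278% at the top 5%. The control share of CD150-high CD48-low stem-cell-like cells was 12.95% for hashtag 1, 3.61% for hashtag 2 and 11.8% under the stricter marker gate. Over all kept cells, Pearson r of tag and RNA was 0.412 and 0.267 for CD150, 0.723 and 0.764 for CD48, 0.594 and 0.494 for CD41 and 0.106 in the control for CD201. Thinned, rho was 0.0829 and 0.0548 for CD150, 0.373 and 0.364 for CD48 and 0.220 and 0.106 for CD41. With the log of raw tags it was 0.0748 and 0.0289 for CD201, and 0.285 for CD41 in the Utx-labelled library.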
